A study of Mus musculus with 55 samples.

Results

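Conjugation is the second step by which the liver clears drugs, bile acids, bilirubin and steroid hormones. Sulfotransferases (Sult genes) attach sulfate, UDP-glucuronosyltransferases (Ugt genes) attach glucuronic acid, and glutathione S-transferases (Gst and Mgst genes) attach glutathione, and the products are pumped into bile or blood. Carboxylesterases (Ces genes) and epoxide hydrolases (Ephx genes) are named with them because they open esters and epoxides, although they conjugate nothing. Many of these genes are known targets of the constitutive androstane receptor (CAR), a nuclear receptor of hepatocytes, and Gst genes are also known targets of the stress-response factor Nrf2. Genes were taken by symbol, as every Sult, Ugt, Gst, Mgst, Ephx or Ces gene present in either RNA-seq table of mouse liver. They numbered 51 of 4113 genes in the tables, namely 10 Sult, 13 Ugt, 17 Gst, 1 Mgst, 1 Ephx and 9 Ces genes, of 99 genes with such symbols in the annotation.

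RNA was sequenced from whole livers of male C57Bl6 mice aged 45 to 50 days. The groups were 5 untreated wild type (WT) livers, 5 WT livers 24 h after 3 mg/kg TCPOBOP, a synthetic CAR agonist and liver mitogen, and 4 Setd8-LKO livers given the same dose for the same time. Setd8-LKO mice are Setd8 lox/lox animals carrying Alb-Cre, which removes the floxed exon of the histone H4K20 methyltransferase Setd8 in hepatocytes only. No untreated Setd8-LKO livers were sequenced, so genotype and treatment change together against untreated WT. The effect of TCPOBOP within WT, and that of genotype within treated livers, each have their own comparison. The control livers are labelled untreated, while the study's methods name a corn-oil vehicle, so the injection may differ between groups as well.

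One table set Setd8-LKO + TCPOBOP against untreated WT and held 42 of the 51 genes. The other set WT + TCPOBOP against untreated WT and held 27, and 18 genes stood in both. Each table lists only genes that the authors selected as changed on these libraries, so a call made here is not independent evidence that a listed gene changed, and the level of an unlisted gene is unknown. Levels are given as normalized counts, the number of reads on a gene after scaling each library by the authors' factor, in the order of replicate number. Changes are log2 fold changes with their standard error (SE) from edgeR's quasi-likelihood test, and a gene was called higher or lower at a Benjamini-Hochberg adjusted p under 0.05 with a log2 fold change beyond 1 in either direction. In whole liver, fewer cells of a type and less RNA per cell cannot be told apart. The paper reports that most hepatocytes died in treated Setd8-LKO livers, that the survivors were enlarged, and that small mononuclear cells were enriched. The part of this cell loss in the changes below was not tested.

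Kmt5a, the gene that encodes Setd8, went against its label. It had 563 to 761 normalized counts in untreated WT and 1313 to 1465 in the libraries labelled Setd8-LKO (log2 fold change 1.08, SE 0.14, adjusted p = 0.000179 by edgeR), with 0.27 and no call under DESeq2 size factors, an alternative scaling. A gene-level count does not resolve the loss of an exon. The treatment check followed the labels. All 7 phase I CAR targets checked were called higher in WT + TCPOBOP, and the 6 of them listed for Setd8-LKO were called higher there. Cyp2b10, the classical CAR target, rose by 10.12 (SE 0.54, adjusted p = 2.6e-06 by edgeR) and 9.84 (SE 0.61, adjusted p = 2.57e-06) on the log2 scale. Under DESeq2 size factors 4 of the 7 and 4 of the 6 stayed called, Cyp2b10 among them, and no sign turned. The libraries came from 2 sequencing runs named in the table headers, with 1 Setd8-LKO library in the first and 3 in the second. Within each run all called genes described here kept their direction, with 40 of 40, 23 of 23 and 9 of 9 in the 3 comparisons. The same libraries gave the calls, so this agreement is not independent evidence for them. Setd8-LKO 3 stood apart from the other libraries of its group, with the lowest Sult2a1, Sult2a2, Sult1e1 and Sult1b1 and the highest Sult2a8, Ces3a and Ces3b.

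Markers of liver cells differed between Setd8-LKO + TCPOBOP and untreated WT, a comparison in which genotype and treatment change together. Of 10 hepatocyte markers 7 were listed for Setd8-LKO, 5 of them lower and 1 higher, and their sum ranged from 1238425 to 2002280 normalized counts in untreated WT and from 665483 to 901277 in Setd8-LKO + TCPOBOP. All 8 of the 9 periportal markers that were listed were lower (133805 to 245033 against 30840 to 60239). Of 10 pericentral markers 4 were listed, 3 lower and 1 higher (55837 to 140711 against 20117 to 42177). Of 7 stellate cell and fibroblast markers 3 were listed and higher (1947 to 2951 against 4813 to 11108), and of 6 cholangiocyte and progenitor markers all were listed and 4 were higher (427 to 690 against 1627 to 7466). Single markers were listed of 10 for Kupffer cells (Marco, higher) and of 6 for endothelium (Vwf, higher), and the 2 listed of 5 for neutrophils were not called. Markers also moved in WT + TCPOBOP. Of the pericentral markers 5 were listed there, with Oat, Slc1a2, Lhpp and Lgr5 lower and Cyp1a2 higher, and their sum went from 19638 to 31297 in untreated WT to 26932 to 36597. The periportal markers Gls2 and Ass1 were lower (45175 to 110772 against 18960 to 28022), as was the stellate cell marker Lrat (268 to 389 against 113 to 166). Cyp3a11, itself a CAR target, was the hepatocyte marker listed and was higher, and Marco was not called. Over all genes tested, 54.7% were called higher and 37.2% lower for Setd8-LKO, and 57.6% and 19.4% for WT + TCPOBOP. Marker counts under other scalings are not given here. The part of these marker shifts in the changes below was not tested.

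Against untreated WT, 40 of the 42 listed genes passed the filter on low counts in Setd8-LKO + TCPOBOP, and all 40 were called. Of these 19 were higher and 21 were lower, or 47.5% and 52.5%, beside 54.7% higher and 37.2% lower over all 3723 genes tested in that table. The median log2 fold change was −1.05, beside 1.16 over all genes tested. By family, all 7 Ugt genes tested, Mgst1 and 5 of 8 Ces genes were lower, while 10 of 15 Gst genes, 5 of 8 Sult genes and Ephx1 were higher, and no gene changed sign under another scaling. A difference between families was not tested. With DESeq2 size factors over the listed genes, which shift the median gene by −0.82, the genes higher fell to 7 (Gstm3, Gstm2, Gsta1, Gstt3, Sult1e1, Sult2a1 and Sult2a2) and the genes lower stayed at 21, so that higher genes made up 25% rather than 47.5% of the calls. The corresponding share over all genes was 35.8% in place of 59.5%.

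In WT + TCPOBOP all 27 listed genes were tested. Of these 21 were called higher and 2 lower, or 77.8% and 7.41%, beside 57.6% and 19.4% over all 679 genes tested. The median log2 fold change was 1.46, beside 1.34. All 5 Ugt genes, 7 of 8 Gst genes, 6 of 7 Sult genes, 2 of 6 Ces genes and Ephx1 were higher, and Sult2a8 and Ces3b were lower. Ugt1a1, Ugt1a2 and Ugt1a5 gave nearly the same counts, so the number of genes called higher holds the same signal more than once. The scaling mattered more here. TMM and DESeq2 size factors over the listed genes shift the median gene by −1.25 and −1.17, and under either one only 5 genes stayed higher (Ces2a, Gstm3, Gstt3, Sult1e1 and Sult3a1) and 4 were lower, so that 55.6% rather than 91.3% of the calls were higher. Over all genes that share moved from 74.8% to 25.1% and 26.4%. Both alternatives set the middle of a list of selected genes to no change, and which scaling is nearer the truth was not tested.

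**Figure D1:**
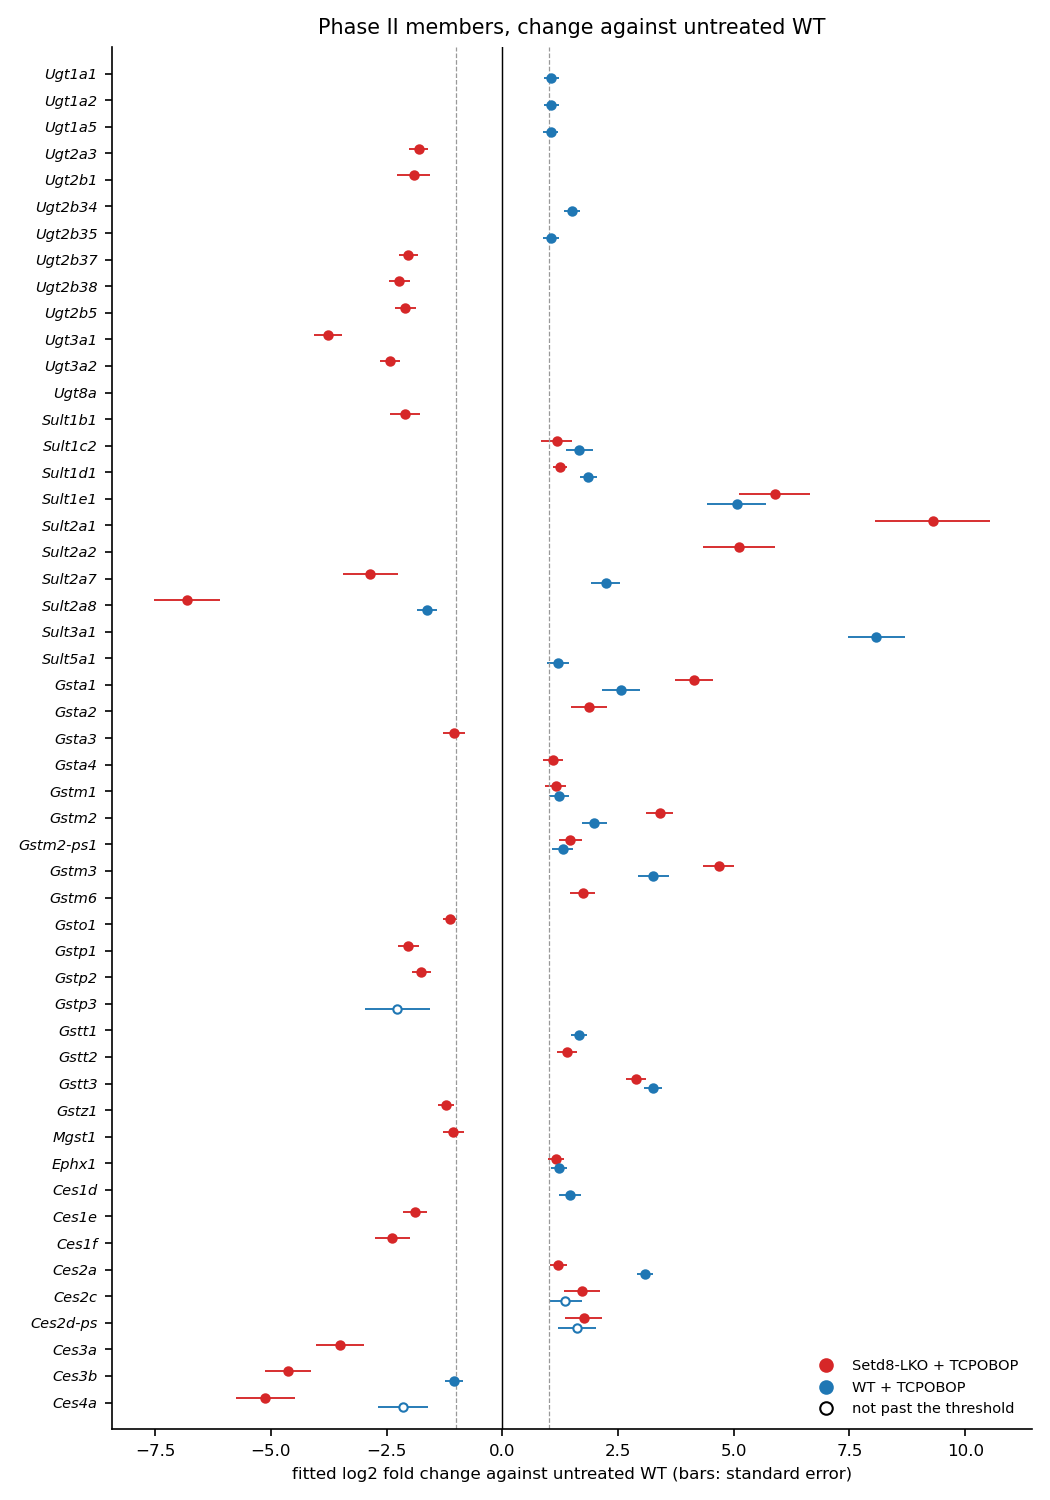
Log2 fold change against untreated WT of each listed Sult, Ugt, Gst, Mgst, Ephx and Ces gene, with bars of 1 SE, in Setd8-LKO + TCPOBOP (42 genes listed, 40 fitted: Sult3a1 and Ugt8a did not pass the filter and have no point) and in WT + TCPOBOP (27 genes). In Setd8-LKO + TCPOBOP the values run from −6.82 for Sult2a8 to 9.30 for Sult2a1, and in WT + TCPOBOP 21 genes are called higher and 2 lower.

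The 18 genes in both tables allowed a comparison of treated livers of both genotypes. Setd8-LKO + TCPOBOP was called higher than WT + TCPOBOP for 3 of 18 genes (16.7%) and lower for 6 (33.3%), beside 17.6% and 27.3% over the 506 genes in both tables. Their median log2 fold change was −0.22, beside −0.23. The 3 higher were Gst genes, and the 6 lower were 3 Sult and 3 Ces genes. The other 9 were not called, which does not show that they were alike. TMM and DESeq2 size factors, which shift the median gene by 0.29 and 0.11, also gave 3 higher and 6 lower.

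**Figure D2:**
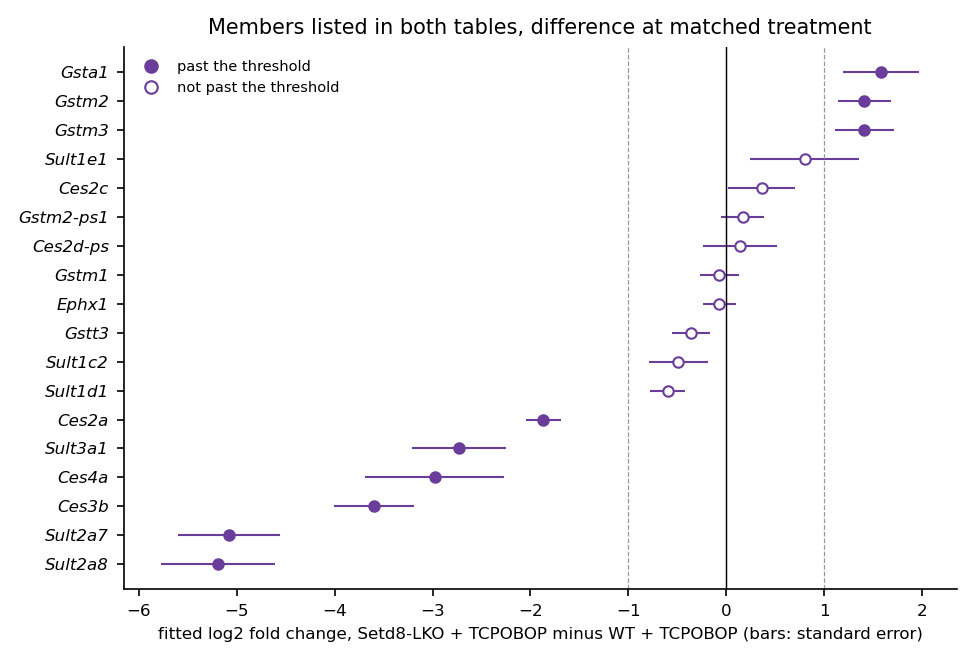
Log2 fold change of Setd8-LKO + TCPOBOP (n = 4) against WT + TCPOBOP (n = 5) for the 18 genes in both tables, with bars of 1 SE. Gsta1, Gstm2 and Gstm3 lie above 1 and are called, and the called genes at the other end run from −1.87 for Ces2a to −5.19 for Sult2a8.

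Sulfotransferases showed the widest span. Sult2a8, a bile acid sulfotransferase of mouse liver on chromosome 7 (14410686 to 14446769, minus strand, mm10), was the most abundant Sult gene of untreated WT per kb of exon. It had 15207, 15748, 9474, 10059 and 11843 normalized counts in untreated WT, 3342, 3611, 3292, 5473 and 4488 in WT + TCPOBOP, and 34, 34, 265 and 109 in Setd8-LKO + TCPOBOP. The 3 groups did not overlap, and treated WT lay between the others. The log2 fold change against untreated WT was −1.63 (SE 0.21, adjusted p = 0.00121 by edgeR) in WT + TCPOBOP and −6.82 (SE 0.71, adjusted p = 4.94e-05), or 113-fold lower, in Setd8-LKO + TCPOBOP. Between the treated genotypes it was −5.19 (SE 0.58, adjusted p = 2.31e-06).

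Sult2a7, its neighbour on chromosome 7 (14465051 to 14494230), differed from untreated WT in opposite directions in the treated groups. It had 16, 21, 12, 20 and 6 normalized counts in untreated WT, 66, 83, 85, 56 and 64 in WT + TCPOBOP, and 2, 0, 4 and 2 in Setd8-LKO + TCPOBOP. TCPOBOP raised it in WT by 2.23 on the log2 scale (SE 0.32, adjusted p = 0.00203 by edgeR), while the Setd8-LKO livers lay below both other groups (−2.85, SE 0.59, adjusted p = 0.00437 against untreated WT, and −5.08, SE 0.52, adjusted p = 9.49e-07 against treated WT). The call in WT was lost under TMM (0.99) and DESeq2 size factors (1.07), with the sign kept. No 50-base stretch of its transcripts is shared with another gene.

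Sult2a1 and Sult2a2, hydroxysteroid sulfotransferases known in mice as genes of the female liver, were higher in Setd8-LKO + TCPOBOP. Sult2a1 had 0, 0, 3, 0 and 0 normalized counts in untreated WT and 745, 782, 17 and 390 in Setd8-LKO + TCPOBOP. The raw counts were 2453 against 3, a ratio of 737 with a 95% counting interval of 252 to 3.58e+03. The fitted log2 fold change of 9.30 (SE 1.24, adjusted p = 0.000234 by edgeR) depends on the prior count. Sult2a2 had 13, 5, 8, 6 and 6 against 388, 418, 15 and 244 (5.11, SE 0.78, adjusted p = 0.000606). Setd8-LKO 3 was far below the other libraries in both genes, yet above every untreated WT library. Without it the values were 9.69 and 5.50, and limma-voom with all libraries gave 4.34 (SE 1.40) for Sult2a2, which was not called (adjusted p = 0.0681). These 2 genes share sequence, since 33.2% of the 50-base stretches of Sult2a1 and 62.1% of those of Sult2a2 occur in other genes, first in each other, and reads between them may be misplaced. Neither gene is listed for WT + TCPOBOP.

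Sult1e1, the estrogen sulfotransferase, was near 0 in untreated WT and present in both treated groups. It had 4, 4, 0, 1 and 1 normalized counts in untreated WT, 105, 123, 55, 39 and 30 in WT + TCPOBOP, and 190, 205, 28 and 70 in Setd8-LKO + TCPOBOP. The rises were 5.06 (SE 0.64, adjusted p = 0.000911 by edgeR) and 5.88 (SE 0.76, adjusted p = 0.000195), and the treated groups overlapped (0.80, SE 0.56, adjusted p = 0.256). That last difference changed sign between sequencing runs, with −0.43 in one and 2.01 in the other.

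Sult3a1, another sulfotransferase known from the female mouse liver, was higher in treated WT than in treated Setd8-LKO livers. It had 1 count in 1 of 5 untreated WT libraries, 97, 145, 126, 49 and 72 normalized counts in WT + TCPOBOP, and 6, 7, 26 and 19 in Setd8-LKO + TCPOBOP. The raw counts in WT + TCPOBOP were 408 against 1, a ratio of 455 with a 95% counting interval of 81.1 to 1.8e+04. In Setd8-LKO + TCPOBOP they were 74 against 1 (66.7, 11.6 to 2.67e+03), and there the gene did not pass the filter. The treated groups did not overlap, and Setd8-LKO was lower by a log2 fold change of −2.73 (SE 0.48, adjusted p = 0.000181 by edgeR).

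**Figure D3:**
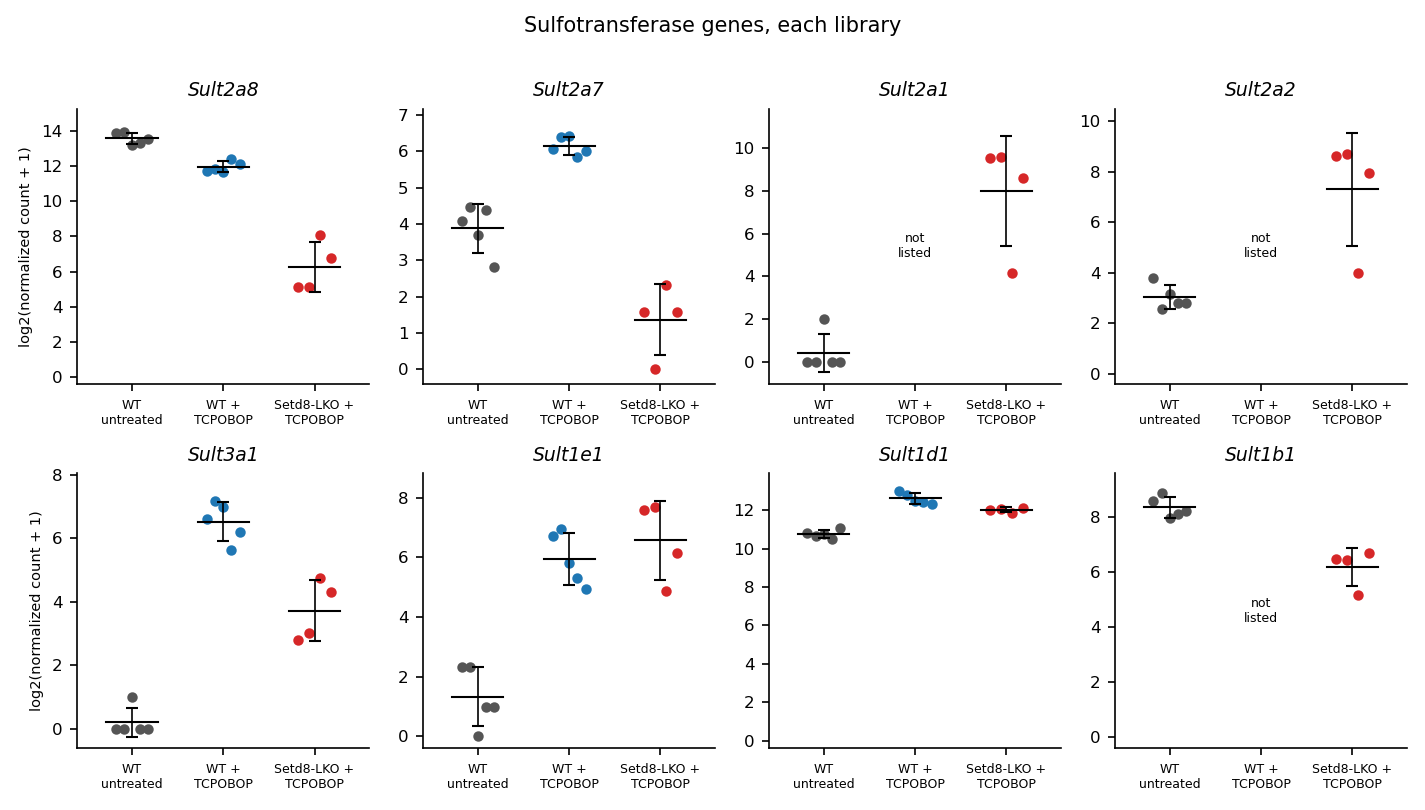
Log2(normalized count + 1) of 8 Sult genes in each library of untreated WT (n = 5), WT + TCPOBOP (n = 5) and Setd8-LKO + TCPOBOP (n = 4), with the mean as a line and 1 SD as bars. Sult2a8 steps down from untreated WT through WT + TCPOBOP to Setd8-LKO + TCPOBOP, and Sult2a1 and Sult2a2 each have 1 Setd8-LKO library, replicate 3, far below the other 3.

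Sult1d1, which sulfates catecholamines and eicosanoids in mice, rose in both comparisons. It had 1468 to 2131 normalized counts in untreated WT, 5115 to 8246 in WT + TCPOBOP (1.86, SE 0.18, adjusted p = 0.000169 by edgeR) and 3740 to 4481 in Setd8-LKO + TCPOBOP (1.25, SE 0.15, adjusted p = 0.000115). The treated groups did not overlap, and their difference of −0.60 (SE 0.18, adjusted p = 0.00939) was under the fold threshold. Sult1c2 was called higher in both (1.66 and 1.17), and the second call was lost with the run as a term and when any of 5 single libraries was left out. Sult5a1, listed for WT + TCPOBOP alone, rose by 1.20 (SE 0.24, adjusted p = 0.0191), and TMM scaling put it at −0.04. Sult1b1, a sulfotransferase of thyroid hormones, had 383, 467, 247, 279 and 300 normalized counts in untreated WT and fell to 88, 85, 35 and 104 in Setd8-LKO + TCPOBOP (−2.11, SE 0.32, adjusted p = 0.000623). Summed over the 9 listed Sult genes, untreated WT libraries held 11514 to 17912 normalized counts and Setd8-LKO libraries 4286 to 5948, a sum that Sult2a8 made up mostly in untreated WT.

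Glutathione S-transferases changed in both directions in Setd8-LKO + TCPOBOP. The 5 mu class genes, the pseudogene Gstm2-ps1 among them, and Gsta1, Gsta2 and Gsta4 of the alpha class were higher, while Gsta3 and the pi class genes Gstp1 and Gstp2 were lower, with no change of sign under TMM or DESeq2 size factors. Gstm3, a mu class enzyme on chromosome 3 (107963696 to 107969283, minus strand), had 2223, 2403, 3173, 1871 and 5255 normalized counts in untreated WT, 25856, 21647, 23686, 45592 and 25847 in WT + TCPOBOP, and 72035, 80176, 59888 and 91487 in Setd8-LKO + TCPOBOP. The 3 groups rose in that order with no overlap. The changes were 3.26 (SE 0.33, adjusted p = 0.000229 by edgeR) in WT + TCPOBOP, 4.67 (SE 0.34, adjusted p = 5.85e-06) in Setd8-LKO + TCPOBOP and 1.41 (SE 0.30, adjusted p = 0.000957) between treated genotypes. Of its 50-base stretches 28.8% occur in other genes, among them Gstm2-ps1 and Gstm1.

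Gstm2, of the same cluster, had 888, 1085, 517, 436 and 848 normalized counts in untreated WT, 2873, 3025, 2567, 4114 and 2423 in WT + TCPOBOP, and 8774, 9253, 5512 and 8391 in Setd8-LKO + TCPOBOP. It showed the same 3 separate steps, with changes of 1.99 (SE 0.27, adjusted p = 0.00149 by edgeR), 3.40 (SE 0.29, adjusted p = 1.57e-05) and 1.41 (SE 0.27, adjusted p = 0.00037). Gsta1, an alpha class enzyme, went from 306, 322, 419, 134 and 651 through 2063, 1282, 2259, 3734 and 1515 to 5483, 7115, 4441 and 8832. Its changes were 2.57 (SE 0.41, adjusted p = 0.00446), 4.14 (SE 0.41, adjusted p = 3.43e-05) and 1.58 (SE 0.39, adjusted p = 0.00314). Of the 50-base stretches of Gsta1 90.5% occur elsewhere, first in Gm3776 and Gsta2, so its level cannot be told apart from theirs.

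The neighbour Gstm1 did not follow these steps. It had 14860 to 29495 normalized counts in untreated WT, 41948 to 59988 in WT + TCPOBOP and 38885 to 50329 in Setd8-LKO + TCPOBOP, and its rises of 1.22 (SE 0.21, adjusted p = 0.00688 by edgeR) and 1.15 (SE 0.23, adjusted p = 0.00332) left a difference of −0.07 (SE 0.20, adjusted p = 0.792) between treated genotypes. TMM scaling put the first of these rises at −0.04. The pseudogene Gstm2-ps1, of whose stretches 35.4% occur in Gstm1, gave 1.30, 1.47 and 0.17. Gstt3, a theta class enzyme, rose in WT + TCPOBOP (3.25, SE 0.20, adjusted p = 5.1e-06) and in Setd8-LKO + TCPOBOP (2.89, SE 0.21, adjusted p = 5.81e-06), with −0.36 (SE 0.19, adjusted p = 0.126) between them. Listed for Setd8-LKO alone, Gsta2 (1.87), Gstm6 (1.74), Gstt2 (1.40) and Gsta4 (1.09) were higher. All 4 calls were lost under DESeq2 size factors, and that of Gsta4 also without untreated WT 4 (0.93). Listed for WT + TCPOBOP alone, Gstt1 was higher (1.65), a call lost under TMM and DESeq2 size factors.

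Gstp1, the pi class enzyme known in mice for its higher level in male than in female liver, was the most abundant Gst gene of untreated WT per kb of exon, at a mean of 40034 normalized counts per kb. It had 62877, 59741, 61902, 55830 and 69516 normalized counts in untreated WT and 11081, 12298, 20253 and 17002 in Setd8-LKO + TCPOBOP, a fall to 4.09-fold lower (−2.03, SE 0.23, adjusted p = 8.48e-05 by edgeR). Its neighbour Gstp2 fell by 1.75 on the log2 scale (SE 0.20, adjusted p = 8.44e-05), and 54.3% of its stretches are shared, nearly all with Gstp1. Neither is listed for WT + TCPOBOP. Gstz1 (−1.22), Gsto1 (−1.13), Gsta3 (−1.05) and Mgst1 (−1.06), the microsomal transferase at 22702 normalized counts per kb in untreated WT, were lower too. The calls of Gsta3 and Mgst1, which sit close to the threshold, were lost when some single libraries were left out. Summed over the 15 listed Gst genes, levels were 137814 to 189843 in untreated WT and 178794 to 235585 in Setd8-LKO + TCPOBOP, ranges that overlap. Higher Gstm3 and Gsta1 thus stood beside lower Gstp1 and Gstp2.

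**Figure D4:**
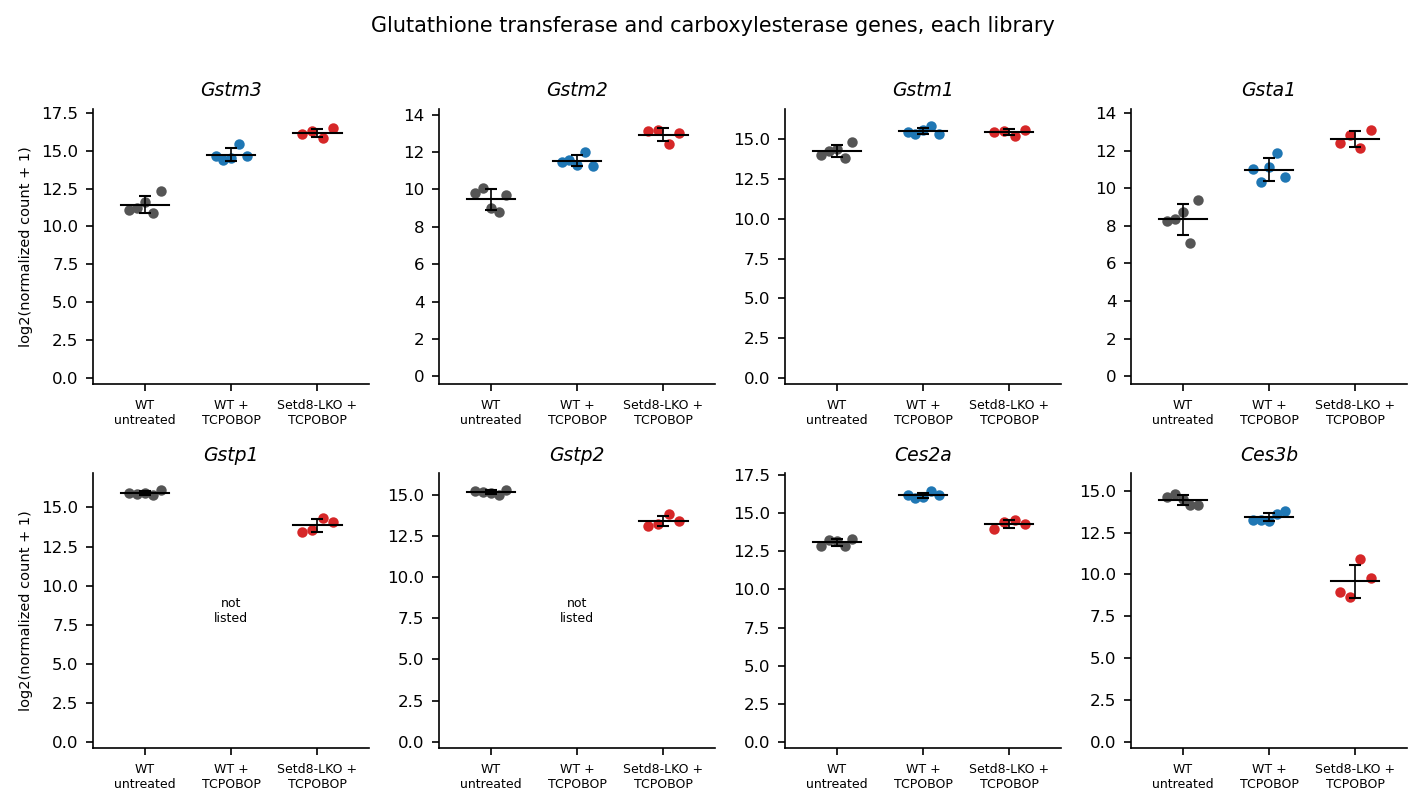
Log2(normalized count + 1) of 6 Gst and 2 Ces genes in each library of untreated WT (n = 5), WT + TCPOBOP (n = 5) and Setd8-LKO + TCPOBOP (n = 4), with the mean as a line and 1 SD as bars. Gstm3, Gstm2 and Gsta1 step up over the 3 groups, Gstm1 is level between the treated groups, Ces2a peaks in WT + TCPOBOP, and Gstp1 and Gstp2 are not listed for WT + TCPOBOP.

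Promoter acetylation was read from lists of H3K27ac peaks, a mark of active promoters and enhancers, with 1 list for untreated WT and 1 for Setd8-LKO + TCPOBOP, from 3 samples each. With 1 list per condition there is no replicate error, and WT + TCPOBOP was not assayed. A gene without a peak in a list has none that passed the authors' cutoff there, which does not show that the mark was absent. A promoter peak was one that overlapped, by at least 1 bp, the 1000 bp on either side of an annotated transcript start of the gene. Such a peak was present in only the Setd8-LKO list for Gsta1 (fold enrichment over background 10.83), Gstm3 (8.39), Gsta4 (7.98) and Gstm2 (7.13). The summit of the Gsta1 peak lay 1101 bp before the start, outside the window, and the Gsta4 peak lay at an internal transcript start. The RNA of all 4 genes was called higher in Setd8-LKO + TCPOBOP. The 250 bases before the RefSeq start of 3 of them follow, from GRCm38.p6 (the mm10 assembly), 5′ to 3′ on the gene's strand, and Gsta4 had no entry. They are chr9:78230419-78230668 (plus) for Gsta1, chr3:107986421-107986670 (minus) for Gstm2 and chr3:107969175-107969424 (minus) for Gstm3, and no letter is in capitals because none of the motifs searched was found.
Gsta1: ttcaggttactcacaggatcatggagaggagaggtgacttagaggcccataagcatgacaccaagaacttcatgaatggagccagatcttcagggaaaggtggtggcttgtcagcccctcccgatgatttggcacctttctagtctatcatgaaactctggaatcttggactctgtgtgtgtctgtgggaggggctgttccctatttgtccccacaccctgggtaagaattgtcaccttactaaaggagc
Gstm2: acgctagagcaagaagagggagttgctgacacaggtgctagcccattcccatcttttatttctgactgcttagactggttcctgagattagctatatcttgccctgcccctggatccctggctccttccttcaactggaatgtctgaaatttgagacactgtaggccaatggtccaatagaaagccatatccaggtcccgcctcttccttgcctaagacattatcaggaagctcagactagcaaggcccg
Gstm3: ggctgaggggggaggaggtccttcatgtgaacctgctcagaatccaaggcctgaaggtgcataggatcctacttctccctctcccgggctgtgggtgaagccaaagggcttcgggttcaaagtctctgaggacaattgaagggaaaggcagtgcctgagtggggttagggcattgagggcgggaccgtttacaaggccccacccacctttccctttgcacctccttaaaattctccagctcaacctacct

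The motifs searched were the core of the antioxidant response element, through which Nrf2 acts (TGACNNNGC, either strand), a direct repeat of the nuclear receptor core site with a spacer of 4 bases (DR4, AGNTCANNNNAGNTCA, either strand), and TATAAA on the gene's strand 45 to 20 bases before the start. Promoter windows were found for 40 of the 51 genes. The antioxidant core was in 2 of 40 (5%), beside 11.5% of 27025 genes. The matches were TGACATTGC in Gsta3, 121 to 113 bases before the start, and TGACCGTGC on the opposite strand in Mgst1, 56 to 48 bases before it, and both genes were lower in Setd8-LKO + TCPOBOP. DR4 was in 0 of 40, beside 0.122%, and TATAAA was in 3 of 40 (7.5%), beside 2.57%. These letters say nothing on enhancers outside the windows.

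Of 5 carboxylesterase genes in both tables, Ces2a, Ces3b and Ces4a were called lower in Setd8-LKO than in WT after treatment, and Ces2c (0.36, adjusted p = 0.409 by edgeR) and Ces2d-ps (0.14, adjusted p = 0.775) were not called. Ces2a, an esterase of drugs and acylglycerols on chromosome 8 (104734003 to 104741634), had 7336, 9671, 9343, 7220 and 10255 normalized counts in untreated WT, 75699, 64113, 68097, 88418 and 73426 in WT + TCPOBOP, and 15611, 21592, 23574 and 20133 in Setd8-LKO + TCPOBOP. No groups overlapped, and the treated Setd8-LKO livers lay between the others. The rise was 3.08 (SE 0.18, adjusted p = 3.63e-06 by edgeR) in WT + TCPOBOP and 1.21 (SE 0.19, adjusted p = 0.000711) in Setd8-LKO + TCPOBOP, a difference of −1.87 (SE 0.18, adjusted p = 6.43e-07). Ephx1, the microsomal epoxide hydrolase, had 1.23 (SE 0.17, adjusted p = 0.00172) and 1.16 (SE 0.18, adjusted p = 0.000671) and −0.07 (SE 0.17, adjusted p = 0.764) between treated genotypes. TMM scaling put the change of Ephx1 in WT + TCPOBOP at −0.02.

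Ces3b and Ces3a, esterases of the hepatocyte endoplasmic reticulum, fell most among abundant esterases. Ces3b had 25132, 29278, 23491, 18421 and 18506 normalized counts in untreated WT, 9740, 9864, 9535, 12746 and 14131 in WT + TCPOBOP, and 493, 405, 1907 and 897 in Setd8-LKO + TCPOBOP. The 3 groups stepped down without overlap, by −1.04 (SE 0.19, adjusted p = 0.011 by edgeR) in WT + TCPOBOP, −4.63 (SE 0.49, adjusted p = 5.28e-05) in Setd8-LKO + TCPOBOP and −3.60 (SE 0.41, adjusted p = 2.78e-06) between them. The first value is at the edge of the threshold, and it was no longer called without untreated WT 2 (−0.93) or without any one of WT + TCPOBOP 1, 2 and 3 (−0.99, −0.99 and −0.98). Ces3a, the most abundant Ces gene per kb at a mean of 16789 in untreated WT, went from 50275, 59621, 36419, 37931 and 36283 to 1772, 1411, 8189 and 4066 (−3.51, SE 0.52, adjusted p = 0.000505). The share of stretches that occur in the other is 25.6% for Ces3a and 26.2% for Ces3b.

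Ces4a had 93, 89, 53, 185 and 40 normalized counts in untreated WT, 12, 13, 13, 13 and 53 in WT + TCPOBOP, and 2, 2, 6 and 1 in Setd8-LKO + TCPOBOP. Setd8-LKO was lower than untreated WT (−5.12, SE 0.64, adjusted p = 0.000156 by edgeR) and than treated WT (−2.98, SE 0.71, adjusted p = 0.00241). WT + TCPOBOP overlapped untreated WT through its replicate 5 alone and was not called (−2.14, SE 0.54, adjusted p = 0.0837), and without that library it was (−2.85, SE 0.47, adjusted p = 0.00847). Ces1f (−2.38) and Ces1e (−1.88) were lower in Setd8-LKO + TCPOBOP, and Ces1d, listed for WT + TCPOBOP alone, was higher (1.46, SE 0.24, adjusted p = 0.00449). Ces2c and the pseudogene Ces2d-ps were called higher in Setd8-LKO + TCPOBOP (1.72 and 1.76). Of their 50-base stretches 36.1% and 76.9% occur in other genes, among them each other, so the calls may rest on the same reads. In WT + TCPOBOP they had 1.36 and 1.62 and adjusted p of 0.114 and 0.0846, and DESeq2, limma-voom and the run as a term called both.

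UDP-glucuronosyltransferases divided by table, with no Ugt gene in both. The 7 tested for Setd8-LKO were all lower, with sums over the 8 listed of 41231 to 67639 normalized counts in untreated WT and 9643 to 19019 in Setd8-LKO + TCPOBOP. Ugt3a1 fell most, from 1876, 2224, 1486, 1201 and 1553 to 94, 77, 164 and 155 (−3.77, SE 0.30, adjusted p = 8.73e-06 by edgeR), or 13.6-fold. Its neighbour Ugt3a2 fell by 2.43 on the log2 scale (SE 0.22, adjusted p = 1.92e-05). These enzymes are known to use UDP-N-acetylglucosamine or UDP-glucose rather than UDP-glucuronic acid. The Ugt2 genes, which glucuronidate steroids and many drugs, were Ugt2b38 (−2.23), Ugt2b5 (−2.10), Ugt2b37 (−2.03), Ugt2b1 (−1.92) and Ugt2a3 (−1.81).

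Ugt2b5 was the most abundant Ugt gene of untreated WT per kb (10143), and went from 20634, 22615, 16859, 14537 and 19583 normalized counts to 3450, 3735, 6236 and 4150 (SE 0.23, adjusted p = 6.94e-05 by edgeR). Of its stretches 41.7% are shared, first with Ugt2b38 and Ugt2b37. Ugt8a, which makes galactosylceramide and is not a liver detoxification enzyme, had 4, 10, 2, 6 and 4 against 34, 39, 6 and 10 and did not pass the filter.

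The 5 Ugt genes listed for WT + TCPOBOP were all higher under the authors' scaling, with sums of 46436 to 64665 in untreated WT and 113123 to 123726 in WT + TCPOBOP. These sums count the reads common to Ugt1a1, Ugt1a2 and Ugt1a5 once per gene, so they overstate the level of Ugt RNA. Ugt1a1, the bilirubin conjugating enzyme, had 15581, 16544, 11055, 11834 and 12747 normalized counts in untreated WT and 29582, 30443, 30206, 26603 and 24241 in WT + TCPOBOP, without overlap (1.06, SE 0.16, adjusted p = 0.00343 by edgeR). Ugt1a2 and Ugt1a5 gave nearly the same counts (15663 and 16078 in untreated WT 1). The Ugt1a genes are alternative first exons joined to common last exons, so from 58.2% to 64% of their stretches are shared, and these 3 genes are 1 measurement. Ugt2b34 rose by 1.51 (SE 0.17, adjusted p = 0.000424) and Ugt2b35 by 1.05 (SE 0.18, adjusted p = 0.00607). Under TMM the Ugt1a values turned to −0.20, −0.20 and −0.21 and Ugt2b35 to −0.20.

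Promoter peaks of H3K27ac present in only the untreated WT list belonged to Ces3b (fold enrichment 14.43), Ugt2b5 (10) and Ugt3a1 (8.04) among genes lower in Setd8-LKO + TCPOBOP. The summit of the Ugt2b5 peak lay 1264 bp after the start, outside the window. Their 250 bases before the RefSeq start are chr8:105083505-105083754 (plus), chr5:87140341-87140590 (minus) and chr15:9279579-9279828 (plus) of GRCm38.p6, 5′ to 3′ on the gene's strand. Capitals mark TATAAA, found in Ces3b 30 bases before the start.
Ces3b: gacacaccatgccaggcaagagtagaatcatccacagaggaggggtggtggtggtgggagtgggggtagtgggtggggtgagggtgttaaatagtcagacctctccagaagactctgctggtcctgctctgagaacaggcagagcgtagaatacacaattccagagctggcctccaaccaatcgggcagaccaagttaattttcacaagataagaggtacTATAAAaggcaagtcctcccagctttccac
Ugt2b5: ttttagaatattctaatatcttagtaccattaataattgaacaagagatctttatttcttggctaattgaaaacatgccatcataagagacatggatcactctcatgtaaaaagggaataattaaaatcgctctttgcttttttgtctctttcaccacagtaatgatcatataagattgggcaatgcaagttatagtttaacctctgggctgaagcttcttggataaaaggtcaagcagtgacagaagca
Ugt3a1: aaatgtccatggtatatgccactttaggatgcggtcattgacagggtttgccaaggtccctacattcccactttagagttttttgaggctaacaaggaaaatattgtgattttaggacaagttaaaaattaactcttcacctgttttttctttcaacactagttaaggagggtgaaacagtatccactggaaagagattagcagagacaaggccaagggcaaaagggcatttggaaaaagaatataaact

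Over all 51 genes, 32 (62.7%) had an H3K27ac promoter peak in the untreated WT list and 33 (64.7%) in the Setd8-LKO list, beside 60.9% and 64.4% of 4101 listed genes with coordinates. Among the 19 genes with higher RNA in Setd8-LKO + TCPOBOP the peak was in the Setd8-LKO list only for 4, or 21.1% (exact binomial 95% interval 6.05 to 45.6), and in the untreated WT list only for 0, which allows up to 17.6%. The shares over all 2032 genes called higher were 8.37% and 1.08%. Among the 21 genes with lower RNA these counts were 0, which allows up to 16.1%, and 3, or 14.3% (3.05 to 36.3), beside 2.25% and 4.64% of 1380 genes. These intervals cover counting error only and span the shares of all genes. Over all 51 genes the peak was in the Setd8-LKO list only for 6 (11.8%, interval 4.44 to 23.9), beside 6% of listed genes. It was in the untreated WT list only for 5 (9.8%, 3.26 to 21.4), beside 2.51%. The last interval, again of counting error only, lies above that share. Outside the genes called for Setd8-LKO, the gains were at Gstp3 and Ugt8a and the losses at Sult5a1 and Ugt1a5.

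Where both lists had a promoter peak, the fold enrichment was lower in the Setd8-LKO list for 11 of 14 genes with lower RNA (78.6%), beside 66.6% of 887 genes called lower, with a median log2 ratio of −0.55, beside −0.19. The highest peak of each list was taken, so the values of a gene need not belong to the same peak. Sult2a8 had 18.33 in untreated WT and 6.41 in Setd8-LKO, with summits 876 and −761 bp from a transcript start in genome coordinates. Ugt2b1 had 19.81 and 9.38 (summits −566 and −611 bp). Gstp1 had 43.34 and 30.72, with both summits outside the window (1439 and 1473 bp). Gstp2 went the other way, with 10.15 (summit −73 bp) and 20.88 (509 bp). For 9 genes with higher RNA the enrichment was higher in the Setd8-LKO list for 4 (44.4%), beside 74.7% of 1176 genes called higher, with a median of −0.02, beside 0.44. Sult1e1, Sult2a1, Sult2a2, Sult2a7 and Sult3a1 had no promoter peak of H3K27ac in either list.

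**Figure D5:**
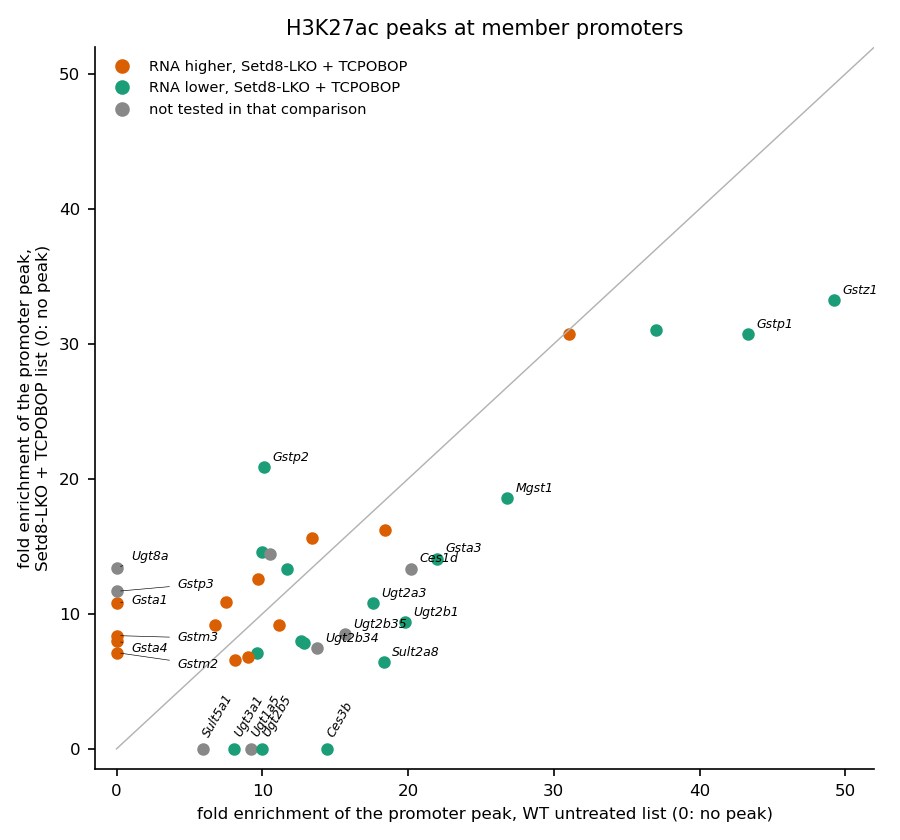
Fold enrichment of the highest H3K27ac peak that overlaps the 1000 bp on either side of a transcript start in the untreated WT list (horizontal) and in the Setd8-LKO + TCPOBOP list (vertical), 1 point per gene, with 0 for no peak, coloured by the RNA call, and the line of equality. Points on the vertical axis are the 6 genes with a peak in the Setd8-LKO list only, and those on the horizontal axis the 5 with a peak in the untreated WT list only. Of the 27 with both, 19 (70.4%) lie below the line, beside 43.1% of 2395 listed genes.

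Accessible chromatin (ATAC-seq, 3 and 5 samples) showed a promoter peak for 27 of the 51 genes (52.9%) in each list, while over all listed genes the share was 44.7% in untreated WT and 38.2% in Setd8-LKO + TCPOBOP. The accessible promoters gained were Ephx1, Gsta4 and Gstm3, and those lost were Gsta2, Gstt1 and Mgst1. Gains and losses each made up 5.88% of the genes, beside 2.61% gained and 9.17% lost over all listed genes. The exact binomial interval of 1.23 to 16.2% for each covers counting error only and spans both shares of all listed genes. Peaks of CTCF, which bounds chromatin domains, were at 2 promoters in untreated WT and 6 in Setd8-LKO + TCPOBOP (3.92% and 11.8%), beside 6.97% and 42% of all listed genes. Peaks of the cohesin subunit Smc3 were at 8 and 10 (15.7% and 19.6%), beside 19.5% and 58%. The lists differed in size, with 5838 and 20905 CTCF regions and 13045 and 21615 Smc3 regions. The paper judges the new sites of both proteins probably unstable and without function. For Lamin A/C and H4K20me3 a gene counted when an island overlapped its gene body by at least 1 bp. Lamin A/C islands overlapped Ugt8a alone in both conditions (1.96% of the genes), beside 7.36% and 5.75% of all listed genes. Islands of H4K20me3, a repressive mark, overlapped Ugt2b37 in both conditions and also Gstm2-ps1 and Sult1c2 in Setd8-LKO + TCPOBOP. These were 1.96% and 5.88% of the genes, beside 4.88% and 6.24% of all listed genes.

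Genes that feed and regulate conjugation were counted from fixed lists, beside 54.7% called higher and 37.2% lower over all genes tested for Setd8-LKO and 57.6% and 19.4% for WT + TCPOBOP. Of 18 genes of cofactor supply, 6 were listed for Setd8-LKO, with 2 higher and 4 lower. Ugdh, which makes UDP-glucuronic acid, rose (1.02, SE 0.17), as did the cystine importer Slc7a11 (1.63, SE 0.25), while Gclc, the catalytic subunit of the first step to glutathione, fell (−1.35, SE 0.24), as did Cbs (−1.84), Cth (−1.16) and Ugp2 (−1.15). In WT + TCPOBOP 3 were listed, and Papss2, which makes the sulfate donor, rose (1.64, SE 0.16), while Ugp2 (−1.21) and Cbs (−1.17) fell. Each change had an adjusted p from 0.000146 to 0.0255 by edgeR. Ugdh and Slc7a11 (0.20 and 0.77) were not called under DESeq2 size factors, nor was Papss2 (0.45, and 0.38 under TMM).

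Of 17 receptors and factors, 6 were listed for Setd8-LKO. Ahr (1.87, SE 0.16, adjusted p = 1.36e-05 by edgeR) and Nfe2l2, which encodes Nrf2 (1.00, SE 0.14, adjusted p = 0.000292), were higher, and Onecut1 (−2.61), Cebpa (−2.24), Ppara (−1.53) and Bcl6 (−1.46), a repressor known to hold down female-type genes in male liver, were lower. Ahr was the single one listed for WT + TCPOBOP (1.68, SE 0.18, adjusted p = 0.000311). Nfe2l2, at the edge of the threshold, was not called under TMM (0.98) or DESeq2 size factors (0.16), nor was Ahr in WT + TCPOBOP (0.43 and 0.52). Of the 6 Nrf2 targets on the fixed list, 4 were listed for Setd8-LKO and all were higher (Gpx2 4.21, Srxn1 2.71, Nqo1 2.27 and Hmox1 1.71). None was listed for WT + TCPOBOP. This list does not hold every Nrf2 target, and Gclc (−1.35) and Slc7a11 (1.63) were counted with cofactor supply instead. Under DESeq2 size factors Hmox1 (1.01) was not called and Gpx2 was not tested.

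Of 8 exporters of conjugates, 4 were listed in each table. All 4 were higher in WT + TCPOBOP (Abcc3 1.74, Abcc4 1.64, Abcb1a 1.22 and Abcc2 1.08). None of these 4 was called under TMM, where Abcb1a (−0.04) and Abcc2 (−0.17) turned, or under DESeq2 size factors, where Abcc2 (−0.09) did. In Setd8-LKO + TCPOBOP Abcc4 (3.30), Abcb1a (2.04) and Abcc3 (1.04) were higher and Abcc6 was lower (−2.55), and Abcc3 was not called under DESeq2 size factors (0.23). Abcc4, which pumps conjugates back to blood, was higher in Setd8-LKO than in WT after treatment (1.66, SE 0.27, adjusted p = 8.04e-05 by edgeR). Of 16 other conjugating and related metabolic enzymes, such as methyl-, acetyl- and amino acid transferases, 10 were listed for Setd8-LKO and all were lower. These 10 were also lower under TMM and DESeq2 size factors. They ranged from Bhmt, the betaine methyltransferase (−3.26, SE 0.35, adjusted p = 5.65e-05), to Acsm3 (−1.19, SE 0.18, adjusted p = 0.000619), and included the bile acid conjugating Baat (−2.02). Bhmt was the only one listed for WT + TCPOBOP, where it was lower too (−1.84, SE 0.37, adjusted p = 0.0194).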

How the data were processed

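For RNA-seq, the authors passed reads through PRINSEQ and HISAT2 (mm10) and counted, normalized and tested genes in metaseqR. The deposited tables hold raw counts per gene, and normalized counts rounded by the authors to whole numbers (a score equal to the raw count times 1 factor per library). They also hold the authors' own fold changes and p-values, which were not used, and 114 further per-sample columns that were not used. Whether counting used strand is not given in the sources used here. Only selected genes are listed, so column sums are not the depth, which the study gives as an average of 40000000 reads. For chromatin, reads were trimmed with Trimmomatic 0.39 and aligned to mm10. Each peak carries a −log10 p and a fold enrichment that the authors obtained from MACS2 2.2.7.1, and the SICER score of Lamin A/C and H4K20me3 islands was deposited by them, with 1 list per condition. How replicates were combined is not given in the sources used here.

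Raw counts went through the quasi-likelihood test of edgeR 4.0.16 (R 4.3.3) with the authors' factors as offsets, all libraries of the groups compared, and filterByExpr at a minimum count of 10. The p-values from edgeR were adjusted by Benjamini-Hochberg over the 21951 protein-coding genes of GENCODE M21, as if no unlisted gene had changed. Between treated groups they were adjusted over the 506 shared genes. The study's methods call the RNA libraries biological replicates, and p-values measure the spread between them. Ratios with 1 to 3 counts in a group carry exact 95% intervals, which cover counting error only. Promoters were 1000 bp either side of each transcript start in GENCODE M21, and promoter sequences came from RefSeq (GRCm38.p6). Genes sharing 50-base stretches were found in GENCODE M21 transcripts. On simulated counts the test recovered 168 of 200 changed genes (84%) among 3900 and 180 of 200 (90%) among 719, with 0 in the wrong direction. The simulation gave every gene the same spread, left most genes unchanged and took the authors' factors as the true scaling. It therefore does not test the scaling, and its rates need not hold for the listed genes.

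The genes named are the 10 largest rises and falls without overlap in each table, those in both tables, the most abundant of each family per kb and those whose call or sign depends on a setting. The genes, families and lists were chosen with earlier results of these data known. The T and B cell marker list and 1 conjugating enzyme are not reported here. Gstp3, Gstp2, Gsto1, Gstz1, Ces1e, Ugt2a3, Ugt2b1, Ugt2b37 and Ugt8a, the values within runs, the TATAAA search, TMM between treated genotypes and other scalings of the pathway lists were added after values were seen. Alternatives were TMM and DESeq2 (1.42.0) size factors over the listed genes, DESeq2's Wald test, limma-voom (limma 3.58.1), no filter, the run or the replicate number as a term, adjustment over the listed genes, and leaving out each library. Same-numbered libraries correlated from −0.409 to 0.234, and most came from different runs, so these values do not decide whether the numbers pair them. The main test treated the libraries as unpaired.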

Additional observations from a re-analysis of the deposited data

Results flagged for a closer look

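In 120 groups of 4 or 5 libraries, 7 values stood apart from the rest of their group by Dixon's 95% criterion, which chance meets in about 1 of 20 groups. Gstp3, a pi class transferase named after its values were seen, had 1675 normalized counts in untreated WT 1 and 145 to 218 in the other untreated WT libraries. WT + TCPOBOP had 78 to 115, the difference was not called (log2 fold change −2.27, SE 0.70, adjusted p = 0.256 by edgeR), and without untreated WT 1 it was −0.82 (SE 0.22, adjusted p = 0.131). Gstm3 had 45592 in WT + TCPOBOP 4 and 21647 to 25856 in the others of that group. Ces4a had 53 in WT + TCPOBOP 5 and 12 to 13 in the others. Ugt2a3 had 3268 in untreated WT 4 and 5248 to 6037 in the others, and Gstz1 had 5408 in Setd8-LKO 4 and 4047 to 4262 in the others. Sult2a1 and Sult3a1 had 3 and 1 normalized counts in untreated WT 3 and 0 in the other untreated WT libraries.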

How the results depend on the processing

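Scaling moved the counts most. Against untreated WT, genes higher in Setd8-LKO + TCPOBOP went from 19 to 7 with DESeq2 size factors. In WT + TCPOBOP the calls went from 23 to 9 under TMM and to 9 under DESeq2 size factors, with 5 and 5 higher in place of 21 and 4 and 4 lower in place of 2. TMM turned Sult5a1 (−0.04), Ephx1 (−0.02), Gstm1 (−0.04), Ugt2b35 (−0.20), Ugt1a5 (−0.21), Ugt1a1 (−0.20) and Ugt1a2 (−0.20), and DESeq2 size factors turned Ugt2b35 (−0.12), Ugt1a5 (−0.13), Ugt1a1 (−0.12) and Ugt1a2 (−0.12). Genes lower in WT + TCPOBOP numbered 4 with adjustment over the listed genes, and 1 to 3 when single libraries were left out, with 1 without untreated WT 2 or WT + TCPOBOP 1, 2 or 3. Between treated genotypes no call was lost or gained under the settings run, and the signs that turned were of genes not called, namely Ces2d-ps with the run as a term (−0.01), Ephx1 and Gstm1 with TMM (0.22 and 0.22) and with DESeq2 size factors (0.04 and 0.04), and Gstm1 with libraries left out (−0.12 to 0.02, above 0 without WT + TCPOBOP 4). With the replicate number as a block, genes lower in WT + TCPOBOP numbered 1, and calls were 17 in place of 23 there and 37 in place of 40 in Setd8-LKO + TCPOBOP. The calls lost under the block were Ces3b, Gsta1, Gstm1, Gstm2-ps1, Sult5a1 and Ugt2b35, and Gsta3, Mgst1 and Sult1c2. CTCF promoter peaks in untreated WT numbered 1 within 500 bp and 4 within 2000 bp, in place of 2. The number of livers and the missing depth of unlisted genes limit what can be called.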
